A study of Mus musculus with 4 samples.

Results

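The 10 genes described here encode the enzymes that release arachidonic acid from membranes and turn it into prostaglandins, thromboxane and leukotrienes. They are Pla2g4a for release, Ptgs1, Ptgs2, Ptges and Tbxas1 for the prostaglandin and thromboxane branch, Alox5, Alox5ap, Lta4h and Ltc4s for the leukotriene branch, and Alox15 for the 15-lipoxygenase step. All 10 were on the array, under 11 probes, out of 23596 genes with a symbol. The members were listed by name, without a rule on measured values, though earlier results of these data were known.

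Gene expression was measured in bone marrow-derived macrophages (BMDMs) of 10-week-old C57BL/6J mice, with 1 array for each of 4 conditions. All cells were differentiated for 6 days in medium with L929 supernatant, a source of M-CSF, and then stimulated for 2 days. Wild-type BMDMs received 20 ng per ml IFN-γ with 100 ng per ml LPS (M1), 50 ng per ml IL-4 (M2), or the same IL-4 together with 250 nM of Torin1, an ATP-competitive inhibitor of mTOR (Torin1-treated M2). Lamtor1-deficient M2 cells received the same IL-4 without Torin1. Their label reads p18 (2400001E08Rik) -/-, which are older names of Lamtor1, and the study's methods describe a floxed allele deleted by LysM-Cre, which acts in myeloid cells. No array held BMDMs without a polarizing stimulus, so the 3 comparisons were each with the M2 array and share it. The ratio between the Lamtor1-deficient and Torin1 arrays is given for a few genes. With 1 array per condition there was no replicate and no test, and a ratio describes 2 libraries. A ratio of 2-fold or more is called higher or lower, as a description. The error given is technical. Over the probes spotted at least 8 times and well above background on both arrays, the median SD of a log2 ratio was 0.098 for M1 (232 probes), 0.090 for Lamtor1 deficiency (249) and 0.093 for Torin1 (246), and it rose to between 0.24 and 0.29 where a signal was under 100.

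Cytosolic phospholipase A2 frees arachidonic acid from membrane phospholipids. Either cyclooxygenase converts it to prostaglandin H2, which prostaglandin E synthase turns into prostaglandin E2 and thromboxane synthase into thromboxane A2, whereas 5-lipoxygenase, helped by its activating protein, makes leukotriene A4, from which leukotrienes B4 and C4 arise. In macrophages, the inducible cyclooxygenase and the inducible prostaglandin E synthase are classical targets of LPS, while the other cyclooxygenase is regarded as the constitutive form.

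The sequences on which the cyclooxygenase and prostaglandin E synthase results rest are the array's own 60-base probes. The first 30 bases of each are shown, 5′ to 3′, because the first 2 report opposite responses and the last 2 are different probes for the same gene. Coordinates are those of the array annotation in mm9.
Ptgs1, chr2:36107644-36107703, plus strand: gagccacacttagactctttccaaagatgt
Ptgs2, chr1:151954744-151954803, plus strand: tttttgaaaagtttgaagttagaacttagg
Ptges, brighter probe, chr2:30744995-30745054, minus strand: atgataaaggactaaacctctgaacctgta
Ptges, dimmer probe, chr2:30748214-30748273, minus strand: aaccctctgatcgcctggatacatttcctc

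The promoters of 3 genes of this branch are shown because Ptgs1 and Tbxas1 were called lower than M2 in all comparisons and Ptgs2 in none. Each run holds the 250 bases before the annotated start in RefSeq for GRCm38.p6, and capitals mark every match to the motifs searched on both strands.
Ptgs1, chr2:36230176-36230425, plus strand: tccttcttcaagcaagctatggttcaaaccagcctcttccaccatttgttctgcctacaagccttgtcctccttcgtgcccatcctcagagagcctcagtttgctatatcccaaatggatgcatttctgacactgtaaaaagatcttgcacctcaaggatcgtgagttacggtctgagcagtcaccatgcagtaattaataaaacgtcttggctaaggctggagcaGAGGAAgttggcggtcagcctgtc
Tbxas1, chr6:38918736-38918985, plus strand: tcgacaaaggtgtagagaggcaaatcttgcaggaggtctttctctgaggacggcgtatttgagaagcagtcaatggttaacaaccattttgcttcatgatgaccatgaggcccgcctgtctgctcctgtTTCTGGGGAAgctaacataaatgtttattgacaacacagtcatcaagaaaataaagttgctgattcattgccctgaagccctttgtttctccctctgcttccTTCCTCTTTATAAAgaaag
Ptgs2, chr1:150099781-150100030, plus strand: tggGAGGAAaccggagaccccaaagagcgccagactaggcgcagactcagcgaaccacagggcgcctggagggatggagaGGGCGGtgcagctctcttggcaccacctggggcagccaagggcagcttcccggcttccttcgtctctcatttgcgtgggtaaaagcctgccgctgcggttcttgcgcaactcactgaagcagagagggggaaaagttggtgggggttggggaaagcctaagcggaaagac
Windows were available for 8 of the 10 members and ran to 50 bases after the start. Alox5ap and Alox15 had none. The PU.1 core GAGGAA, named for a transcription factor of myeloid cells, was present 24 bases before the start of Ptgs1, 19 bases before that of Tbxas1 and 247 bases before that of Ptgs2. It was found in 28.3% of all 32851 promoter windows and in 7 of the 8 members. The Tbxas1 window also held a STAT6 element, TTCNNNNGAA, the spacing that the factor activated by IL-4 prefers, 121 bases before the start, and 2 overlapping TATA boxes, TATAAA. The STAT6 element was in 6.95% of all windows and in 2 of the 8 members, the other being Ptges, which was lowest in M2, and the TATA box in 13.6%. The Ptgs2 window held a GC box, GGGCGG, 170 bases before the start and an E-box, CACGTG, at base 17 after it, found in 35.7% and 7.15% of all windows. No window of a member held the letters of the kappaB site, of the cAMP response element TGACGTCA or of the GAS element TTCNNNGAA, which were in 4.51%, 1.79% and 8.30% of all windows. These are matches of letters and were not tested as sites.

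Levels are given as relative signal, which is the processed signal of a probe divided by the 75th percentile of all non-control probes on the same array. That percentile was lowest for M1, at 287, and stood at 595 for M2, at 536 for Lamtor1-deficient cells and at 470.0 for those given Torin1. Relative signals of different probes are not comparable with each other. On the M1 array 8 of the 10 members were well above background by the scanner software, and on each of the other arrays 9 were. Alox15 was above background on none and Alox5 was not on the M1 array. The probe of the deleted gene gave a relative signal of 51.2 in M1, 66.3 in M2, 1.55 with Lamtor1 deficiency and 74.96 with Torin1, so 2.34% of the M2 signal was left in the Lamtor1-deficient library. All 9 macrophage markers on the array were above background in every library, but not at equal levels. Emr1, which encodes F4/80, was 54.4 in M1, 111.6 in M2, 18.8 with Lamtor1 deficiency and 15.9 with Torin1, and Fcgr1, an Fc receptor, was 29.2, 5.20, 0.167 and 0.213 in the same order. Both were low on the arrays on which Alox5ap was low, and 5 of the 9 markers were lower than in M2 with Lamtor1 deficiency, the others being Cd14 (20.4 in M2 and 5.62), Itgam (13.97 and 7.94) and Csf1r (485 and 357). Cd68, Lyz2, Mpeg1 and Mertk were higher than in M2 on both arrays, as with Lyz2 at 109 in M2, 177 with Lamtor1 deficiency and 118 with Torin1. The summed signal of the 9 was 712 in M1, 1156 in M2, 1122 with Lamtor1 deficiency and 1405 with Torin1. The part of these markers in the results below was not tested. Nos2, a marker of M1 polarization, went with the labels of M1 and M2, at 581 in M1 and 0.384 in M2, and it was 18.6 with Lamtor1 deficiency and 16.5 with Torin1.

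**Figure D1:**
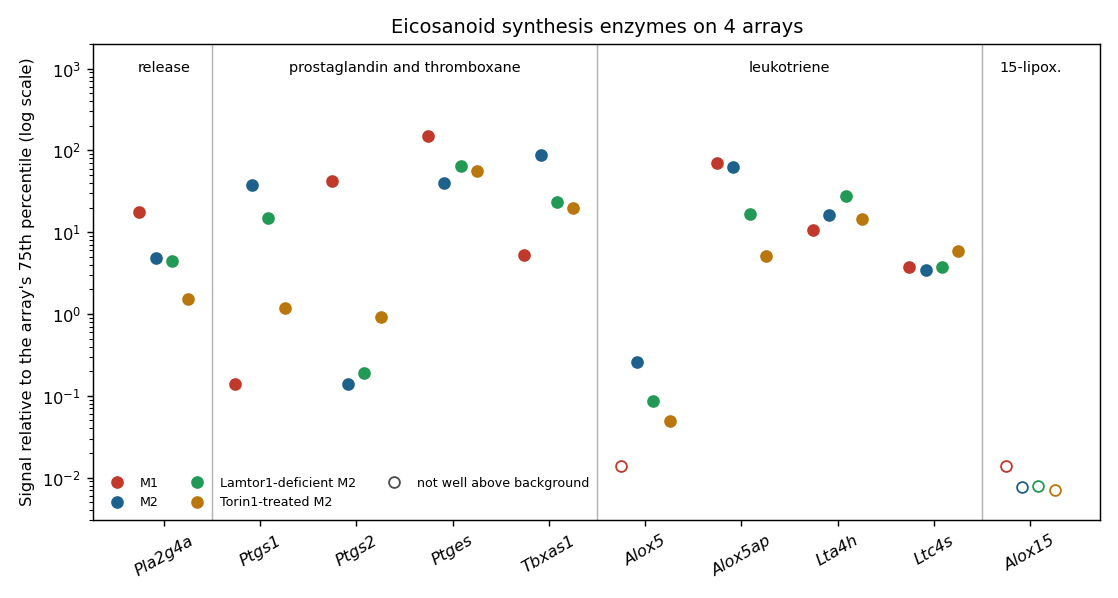
Relative signal of the 10 enzymes on each of the 4 arrays, on a log scale, grouped by step. Open circles are probes not well above background. The widest spreads are those of Ptgs1, from 0.141 in M1 to 37.9 in M2, and Ptgs2, from 0.140 in M2 to 42.1 in M1. Levels of different genes cannot be set against each other.

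M1 against M2 divided the prostaglandin branch. Of the 10 members, 3 were called higher in M1 (Pla2g4a, Ptgs2 and Ptges) and 3 lower (Ptgs1, Tbxas1 and Alox5), where 19.3% of all genes were called higher and 17.2% lower. Both M1 counts are near the shares over all genes. Lamtor1 deficiency left no member called higher and 4 called lower (Ptgs1, Tbxas1, Alox5 and Alox5ap), where 6.26% of all genes were called higher and 6.15% lower. Under Torin1, 1 member was called higher (Ptgs2) and 5 lower (Pla2g4a, Ptgs1, Tbxas1, Alox5 and Alox5ap), where 8.62% of all genes were called higher and 9.61% lower. For Lamtor1 deficiency and Torin1, the counts of members called higher are near those shares too. The 4 members called lower in Lamtor1-deficient cells were also called lower under Torin1, but both comparisons use the same M2 array. The median log2 ratio of the members measured on both arrays was 0.13 for M1, against 0.09 over all such genes, -0.09 against 0.09 for Lamtor1-deficient cells, and -1.67 against 0.02 for Torin1-treated cells. The scale matters for M1. With arrays shifted to their medians in place of the 75th percentile, all log2 ratios of M1 to M2 fell by 0.82, 8.59% of all genes were called higher and 28.7% lower, and Lta4h joined the members called lower. The same shift took 0.25 from the Torin1 ratios, with 5.91% of all genes called higher and 13.0% lower and the same number of members called. With quantile normalization 14.1% of all genes were called higher and 20.0% lower in M1.

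**Figure D2:**
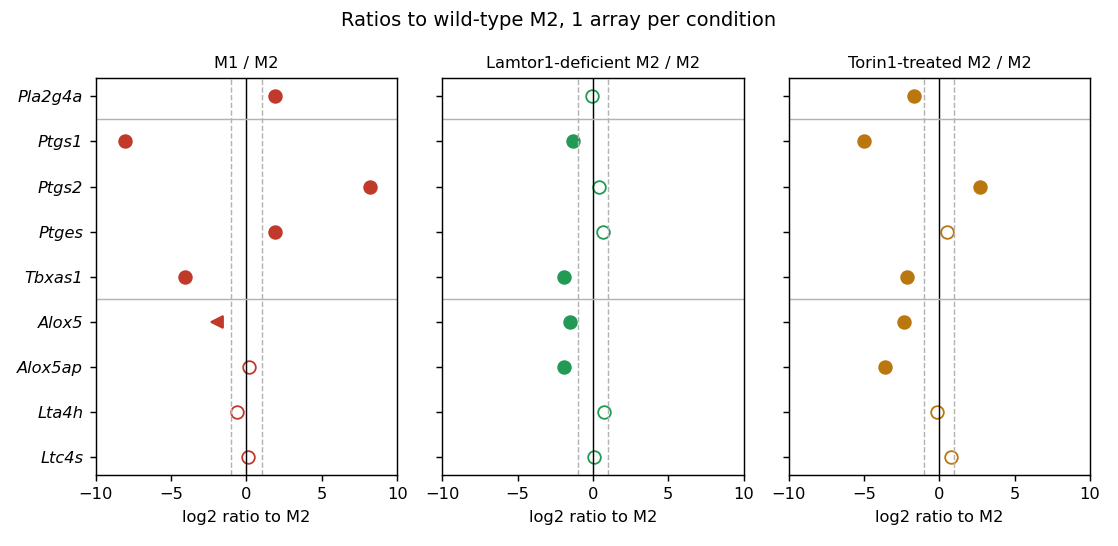
Log2 ratio to M2 of the 9 measured enzymes in each comparison. Filled symbols passed 2-fold (dashed lines), open symbols did not, and the triangle is a bound for Alox5, which was not well above background in M1. Ptgs1 and Tbxas1 lie left of 0 in all panels, Ptgs2 lies right of 0, and Lta4h and Ltc4s stay within the dashed lines.

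For the release step, Pla2g4a, the cytosolic phospholipase A2, had a relative signal of 17.7 in M1, 4.78 in M2, 4.49 with Lamtor1 deficiency and 1.504 with Torin1. M1 was thus 3.71-fold higher than M2 and Torin1-treated cells 3.18-fold lower. M2 and Lamtor1-deficient cells were next to each other, with a ratio of 1.07, which is within 2 technical SDs. Lamtor1-deficient cells and Torin1-treated cells therefore stood apart for this gene, by 2.98-fold.

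The 2 cyclooxygenases ran in opposite directions. Ptgs1, the constitutive cyclooxygenase, had a relative signal of 0.141 in M1, 37.9 in M2, 15.02 with Lamtor1 deficiency and 1.19 with Torin1. It was 269-fold lower in M1 than in M2, 2.53-fold lower with Lamtor1 deficiency and 31.9-fold lower with Torin1. All neighbours in this order differed by more than 2 technical SDs. The M1 value came from a single spot with a processed signal of 40.5, close to background, so the size of that ratio is less certain than its direction.

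Ptgs2, the inducible cyclooxygenase, had a relative signal of 42.1 in M1, 0.140 in M2, 0.189 with Lamtor1 deficiency and 0.911 with Torin1. M1 was 301-fold higher than M2, Torin1-treated cells 6.50-fold higher and Lamtor1-deficient cells 1.35-fold higher, the last under the 2-fold mark. The M2 signal was dim, and with normexp background correction the log2 ratios were 7.23 in M1 and 2.03 with Torin1 in place of 8.23 and 2.70. Its probe was spotted 10 times on each array, which gives the best technical error among the members. The spots ranged from 39.5 to 44.1 in M1, from 0.112 to 0.162 in M2, from 0.163 to 0.207 with Lamtor1 deficiency and from 0.829 to 0.989 with Torin1. At the reported scale the spots of no 2 arrays overlapped. The highest M2 spot (0.162) and the lowest Lamtor1-deficient spot (0.163) nearly met, so their separation depends on the scale. The log2 signals of the spots had an SD of 0.050 in M1, 0.18 in M2, 0.12 with Lamtor1 deficiency and 0.082 with Torin1. These spots were filled from 1 library per array and do not measure variation between cultures.

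Because both genes were read on the same arrays, the difference between their log2 ratios does not depend on any constant by which an array is scaled. Ptgs2 minus Ptgs1 was 16.30 in M1 against M2, 7.70 in Torin1-treated cells against M2 and 1.77 in Lamtor1-deficient cells against M2. Its size does depend on the background correction at the dim spots, since with normexp the log2 ratios of Ptgs2 and Ptgs1 were 7.23 and -6.80 in M1 and 2.03 and -4.87 with Torin1. The balance of the 2 probes thus differed from that of M2 in the same direction in each comparison, and least with Lamtor1 deficiency.

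**Figure D3:**
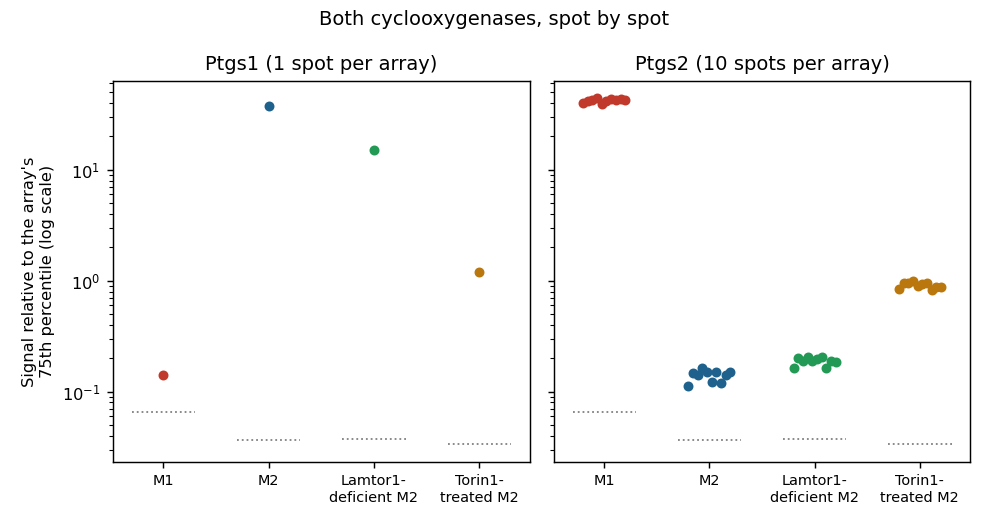
Relative signal of each spot of Ptgs1 (left, 1 spot per array) and Ptgs2 (right, 10 spots per array), on a log scale. Dotted lines give the lowest signal well above background on each array. Ptgs1 is highest in M2 at 37.9 and Ptgs2 in M1 at 42.1. At this scale the Ptgs2 spots of the arrays do not overlap, but those of M2 and Lamtor1-deficient cells nearly meet.

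Ptges, the inducible prostaglandin E synthase, was the only member with 2 probes. The brighter one had a relative signal of 151 in M1, 40.2 in M2, 63.8 with Lamtor1 deficiency and 56.3 with Torin1. It was 3.77-fold higher in M1, 1.59-fold higher with Lamtor1 deficiency and 1.40-fold higher with Torin1, and the last 2 levels lay within 2 technical SDs of each other. The dimmer one had a relative signal of 16.1 in M1, 0.0878 in M2, 0.332 with Lamtor1 deficiency and 0.193 with Torin1. By that probe M1 was 183-fold higher, Lamtor1-deficient cells 3.78-fold higher and Torin1-treated cells 2.20-fold higher. The probes gave the arrays the same order and the same directions but very different sizes. The array annotation puts the brighter probe at base 3583 and the dimmer one at base 364 of their transcripts, and the part that position plays in the sizes was not tested.

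**Figure D4:**
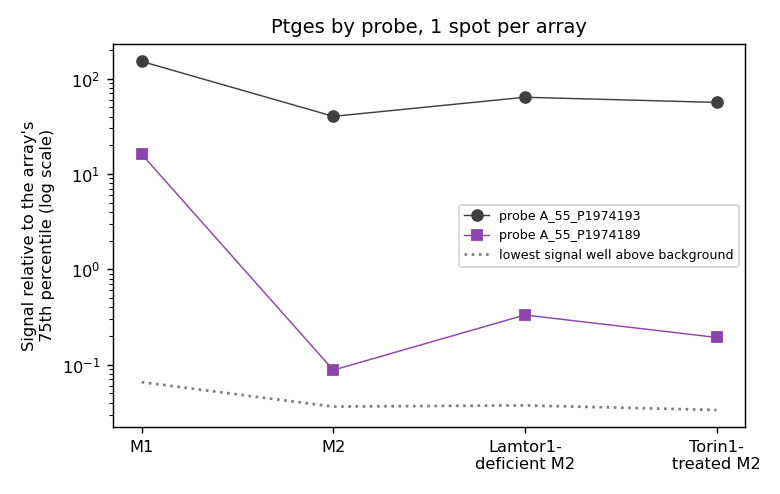
Relative signal of the 2 Ptges probes on the 4 arrays, on a log scale, with the lowest signal well above background as a dotted line. Both are highest in M1 and lowest in M2, but the brighter probe runs from 40.2 to 151 and the dimmer one from 0.0878 to 16.1.

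Tbxas1, thromboxane A synthase, had a relative signal of 5.22 in M1, 88.5 in M2, 23.1 with Lamtor1 deficiency and 19.9 with Torin1. It was 17.0-fold lower in M1, 3.82-fold lower with Lamtor1 deficiency and 4.44-fold lower with Torin1. M2 alone was high. Lamtor1-deficient and Torin1-treated cells differed by 1.16-fold, although the same 2 arrays differed by 12.6-fold for Ptgs1. Since platelets are rich in both enzymes, platelet markers are given here. Of 7 markers, 4 were above background in M1, M2 and Lamtor1-deficient cells and 6 in Torin1-treated cells, with summed relative signals of 10.9, 58.3, 15.1 and 13.0. Nearly all of this was Pf4, a chemokine of platelets, at 10.3 in M1, 57.6 in M2, 14.6 with Lamtor1 deficiency and 12.5 with Torin1. The glycoprotein genes Itga2b, Gp9 and Gp1ba, which define platelets, were not above background in M2, the array on which Ptgs1 and Tbxas1 were highest. The part of Pf4-expressing cells in these results was not tested. In cell populations such as these, fewer cells of a type and less RNA per cell cannot be told apart.

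In the leukotriene branch, Alox5 and Alox5ap of the first step were called lower in Lamtor1-deficient and Torin1-treated cells, while Lta4h and Ltc4s of the later steps were not called in any comparison at the reported scale. Alox5, 5-lipoxygenase, was dim, with a relative signal of 0.255 in M2, 0.0869 with Lamtor1 deficiency and 0.0498 with Torin1, and it was not well above background in M1. It was 2.94-fold lower with Lamtor1 deficiency, 5.12-fold lower with Torin1 and at least 3.90-fold lower in M1, where the bound uses the lowest signal well above background on the M1 array. The signals are near the floor, and with normexp background correction the log2 ratios were -0.84 for Lamtor1 deficiency and -1.10 for Torin1 in place of -1.55 and -2.36, which takes the first under 2-fold. Alox5 was also no longer called lower in M1 with normexp, nor when only probes above background on both arrays were used.

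Alox5ap, the 5-lipoxygenase activating protein, which presents arachidonic acid to the enzyme, had a relative signal of 70.5 in M1, 62.5 in M2, 16.8 with Lamtor1 deficiency and 5.07 with Torin1. M1 and M2 lay within 2 technical SDs of each other, and the sign of their ratio depends on the scale. Lamtor1-deficient cells were 3.72-fold lower than M2 and Torin1-treated cells 12.3-fold lower. On these arrays Alox5ap was thus lower with Torin1 and with Lamtor1 deficiency than in M1 and M2, unlike Ptgs1 and Tbxas1, which were low in M1 too.

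Lta4h, leukotriene A4 hydrolase, which makes leukotriene B4, had a relative signal of 10.6 in M1, 16.2 in M2, 27.4 with Lamtor1 deficiency and 14.5 with Torin1. The log2 ratios to M2 were -0.62, 0.76 and -0.16, none of them past 2-fold, and M2 and Torin1-treated cells lay within 2 technical SDs. Ltc4s, leukotriene C4 synthase, had a relative signal of 3.71 in M1, 3.49 in M2, 3.75 with Lamtor1 deficiency and 5.93 with Torin1. Its log2 ratios were 0.09, 0.10 and 0.76, and M1, M2 and Lamtor1-deficient cells could not be ordered within 2 technical SDs. On the same arrays, Lta4h minus Alox5ap was 2.65 with Lamtor1 deficiency and 3.46 with Torin1 on the log2 scale, and Ltc4s minus Alox5ap was 2.00 and 4.39, so the terminal enzymes and the activating protein changed unequally whatever constant an array is scaled by.

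Neutrophils also express Alox5 and Alox5ap, so neutrophil markers are given beside them. Of 8 markers on the array, 5 were above background in M1, 7 in M2, 8 with Lamtor1 deficiency and 6 with Torin1. The summed relative signal of the 7 markers with a value on every array (Elane was left out, as its spot was flagged as an outlier on the Torin1 array) was 4.42 in M1, 90.6 in M2, 6.35 with Lamtor1 deficiency and 5.92 with Torin1. S100a9 made up most of it in M2 and S100a8 the larger part elsewhere. S100a9 was 1.38 in M1, 65.3 in M2, 2.45 with Lamtor1 deficiency and 2.40 with Torin1. Elane itself ran otherwise, at 52.1 in M1, 12.4 in M2 and 18.6 with Lamtor1 deficiency. The summed markers were thus low on the 3 arrays on which Alox5 was low or not above background. In M1, where the sum was low too, Alox5ap was within 2 technical SDs of its level in M2. Their part in the Alox5 and Alox5ap results was not tested.

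Alox15, 12/15-lipoxygenase, an enzyme of resident peritoneal macrophages that IL-4 is known to induce in human monocytes, was not well above background on any array. No ratio was formed, and the step was not detectable with this probe at this signal. Markers of mast cells and eosinophils, other sources of leukotriene enzymes, are given as well. Of 10 mast cell and basophil markers between 2 and 4 were above background per array, with Fcer1a, Ms4a2, Tpsab1 and Cma1 above it on none. Tpsb2 was above it on every array and Hdc on all but the Torin1 array. Cpa3 (0.0671) and Mcpt8 (0.0658) were above it in M2 alone, the array on which Alox5 was highest. Mcpt4 was above it in M1 alone, and Kit with Lamtor1 deficiency and with Torin1 only. The part of these markers in the Alox5 result was not tested. Epx of the eosinophil list was above background on none. The summed relative signal of the mast cell list ranged from 0.659 to 1.67, and that of the 5 eosinophil markers was 1.02 in M1, 5.37 in M2, 10.1 with Lamtor1 deficiency and 3.19 with Torin1. Most of the eosinophil sum came from Siglec5, at 2.63 in M2 and 9.99 with Lamtor1 deficiency, and Ccr3, at 0.637 in M1, 2.61 in M2 and 0.0871 with Torin1 and not above background with Lamtor1 deficiency. Ccr3 was thus low where Alox5 and Alox5ap were lower than in M2, and its part in those results was not tested. Summed lymphocyte markers ranged from 2.01 to 4.17.

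The rest of the pathway was read from a list of 63 further genes, of which 61 were found on the array. Ptgdr2 was there under its older name Gpr44, which the list also held, and Fam213b was not found under that name. In M1 against M2, 10 of the 61 were called higher (16.4%) and 20 lower (32.8%), against 19.3% and 17.2% of all genes. With arrays shifted to their medians these became 3 and 24, against 8.59% and 28.7% of all genes, and with quantile normalization 6 and 20, against 14.1% and 20.0%. In Lamtor1-deficient cells 12 were called higher (19.7%) and 11 lower (18.0%), against 6.26% and 6.15% of all genes. In Torin1-treated cells 7 were called higher (11.5%) and 17 lower (27.9%), against 8.62% and 9.61%. The median log2 ratio of those measured on both arrays was -0.59 over 38 genes for M1, -0.05 over 40 for Lamtor1-deficient and -0.37 over 39 for Torin1-treated cells.

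**Figure D5:**
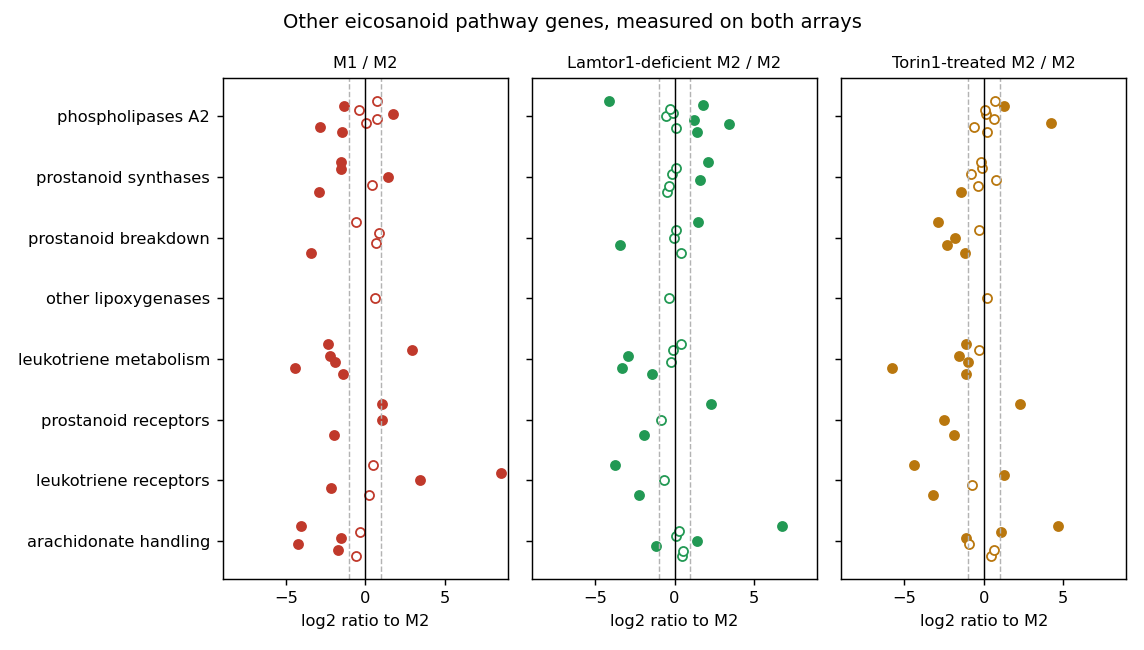
Log2 ratio to M2 of further eicosanoid pathway genes that were well above background on both arrays of a comparison, by group. Each point is 1 gene, filled past 2-fold (dashed lines). The point farthest right in the middle panel is Mgll, 110-fold higher by the brightest of its 4 probes. In the right panel the leukotriene metabolism group lies left of 0 for all 6 genes measured.

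Among genes acting on arachidonic acid before the cyclooxygenases, Mgll stood out with Lamtor1 deficiency. It encodes monoacylglycerol lipase, which frees arachidonic acid from 2-arachidonoylglycerol. Its relative signal was 0.158 in M1, 2.60 in M2, 286 with Lamtor1 deficiency and 66.1 with Torin1, so it was 110-fold higher with Lamtor1 deficiency, 25.4-fold higher with Torin1 and 16.5-fold lower in M1. These values are those of the brightest of its 4 probes, and the other probes were not compared. Pla2g2d, a secreted phospholipase A2, was not above background in M1 and had a relative signal of 0.0666 in M2, near the lowest signal counted there, 0.705 with Lamtor1 deficiency and 1.27 with Torin1, which is 10.6-fold and 19.1-fold higher than M2 in the last 2. Pla2g7, which hydrolyses platelet-activating factor, differed between them. It was 154 in M1, 93.0 in M2, 5.30 with Lamtor1 deficiency and 152 with Torin1, 17.5-fold lower than M2 with Lamtor1 deficiency and within 2-fold of M2 on the other arrays. Of the 13 phospholipases A2, 5 were called higher and 1 lower with Lamtor1 deficiency, against 2 and 1 with Torin1, where 6.26% and 6.15% of all genes were called with Lamtor1 deficiency and 8.62% and 9.61% with Torin1, so that 1 lower gene is near the share over all genes. Pla2g4f was at least 9.61-fold higher with Lamtor1 deficiency, being above background on that array alone, and Pla2g5, a secreted phospholipase A2, was at least 13.1-fold lower with Torin1. Daglb, a diacylglycerol lipase that makes 2-arachidonoylglycerol, was 18.8-fold lower in M1, at 5.27 against 99.2 in M2.

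Of the 8 genes of leukotriene export and metabolism, none was called higher in Lamtor1-deficient or Torin1-treated cells, while 3 and 5 were called lower, against 6.15% and 9.61% of all genes. With 6.26% and 8.62% of all genes called higher, none of 8 is near the share over all genes. Cyp4f18, the enzyme that inactivates leukotriene B4 by hydroxylation, had a relative signal of 2.34 in M1, 51.6 in M2, 5.26 with Lamtor1 deficiency and 0.941 with Torin1. It was 22.0-fold, 9.82-fold and 54.9-fold lower than M2. Dpep2, a dipeptidase that converts leukotriene D4 to E4, was 4.87 in M1, 22.6 in M2, 2.99 with Lamtor1 deficiency and 7.50 with Torin1, and Abcc1, the leukotriene C4 exporter, was also called lower in all 3 comparisons. Mgst2, which can make leukotriene C4, was 7.81-fold higher in M1.

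Of the 7 receptors for leukotrienes and lipoxins, 4 were called lower and none higher with Lamtor1 deficiency, and 3 lower and 1 higher with Torin1. Over all genes 6.15% were lower and 6.26% higher with Lamtor1 deficiency, and 9.61% and 8.62% with Torin1, so the counts of higher receptors are near those shares. Ltb4r1, the high-affinity leukotriene B4 receptor, had a relative signal of 6.05 in M1, 4.29 in M2, 0.318 with Lamtor1 deficiency and 0.203 with Torin1, 13.5-fold and 21.2-fold lower in the last 2. It was high on the same 2 arrays as Alox5ap. Cysltr1, a receptor for cysteinyl leukotrienes, was 1.41 in M1, 6.43 in M2, 1.34 with Lamtor1 deficiency and 0.695 with Torin1. Fpr2, a formyl peptide receptor that also binds lipoxin A4, was 378-fold higher in M1, at 61.3 against 0.162 in M2, and Cysltr2, the other cysteinyl leukotriene receptor, was 11.0-fold higher, at 4.37 against 0.396.

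The prostanoid receptors were mostly dim. Ptger2, a receptor for prostaglandin E2, had a relative signal of 1.82 in M1, 7.27 in M2, 1.95 with Lamtor1 deficiency and 2.00 with Torin1, lower than M2 throughout. Ptger4, another receptor for prostaglandin E2, ran otherwise in M1. It was 1.38 in M1, 0.652 in M2, 0.357 with Lamtor1 deficiency and 0.115 with Torin1. At the reported scale it was 2.12-fold higher in M1 and 5.69-fold lower with Torin1. Ptgir, the prostacyclin receptor, was lowest in M2, at 16.4 in M1, 8.01 in M2, 39.1 with Lamtor1 deficiency and 38.3 with Torin1, 4.88-fold and 4.79-fold higher than M2 in the last 2. Hpgd, which begins the breakdown of prostaglandins, had a relative signal of 0.988 in M2, 0.0919 with Lamtor1 deficiency and 0.195 with Torin1 and was not above background in M1. It was at least 15.1-fold lower in M1 and 10.8-fold lower with Lamtor1 deficiency. Slco2a1, the prostaglandin transporter, was 0.754 in M2, 2.10 with Lamtor1 deficiency and 0.100 with Torin1, so it was called higher with Lamtor1 deficiency and lower, by 7.52-fold, with Torin1. The remaining synthases included Hpgds, which makes prostaglandin D2, at 3.11 in M1, 1.13 in M2, 3.39 with Lamtor1 deficiency and 1.93 with Torin1, and Ptgis, prostacyclin synthase, 4.40-fold higher with Lamtor1 deficiency. The 6 fibroblast markers summed to 16.0 in M1, 43.2 in M2, 55.9 with Lamtor1 deficiency and 15.3 with Torin1, with 4, 6, 5 and 5 of them above background, so that their sum was highest and lowest on the same arrays as Slco2a1 among those given IL-4. Their part in the Slco2a1 and Ptgis results was not tested.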

How the data were processed

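Scanner output of 4 single-colour Agilent mouse arrays (1 slide, 1 scan day) was used. The deposited values are spot intensities. The authors' processed signal is background-subtracted and detrended within each array by Feature Extraction, whose version reads 10.7.3.1 in the file headers and 10.5.1.1 in the submitters' processing notes, without normalization between arrays. The series table, in which the authors deposited the same intensities rounded, served as an alternative.

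Control spots and outlier-flagged spots (170 to 226 per array) were left out, spots of a probe were averaged, signals under 1.0 were set to 1.0, divided by each array's 75th percentile over non-control probes, and put on the log2 scale. No probe was saturated. The brightest probe stood for a gene. For the further pathway genes only that probe is reported. Of those named, Mgll had 4 probes, and Pla2g2d, Pla2g5, Pla2g7, Hpgd, Cyp4f18 and Cysltr1 had 2 each. Where a probe was well above background on 1 array of a comparison only, the ratio is a bound against the lowest signal well above background, and where it was so on neither there is no ratio. With 1 array per condition no test was run. The number of arrays limits precision. Coordinates are mm9. All 10 members matched the RefSeq gene table (GRCm38.p6) and 8 its promoter table.

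The members and lists were chosen with earlier results of these data known. The further pathway genes named were drawn from the 5 with the highest and the 5 with the lowest ratios per comparison, plus Ptger2, Ptger4, Abcc1 and Hpgds, chosen after their values were seen. The call rule was tested on simulated data for Torin1-treated M2 against M2. Python 3.11.15, pandas 2.3.3, R 4.3.3 and limma 3.58.1 (normexp) were used.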

Additional observations from a re-analysis of the deposited data

How the results depend on the processing

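Across the alternatives (3 other scalings, normexp with an offset of 50, the series table, outlier spots kept, the mean of all probes, both other rules for dim probes and a 3-fold mark), the counts of members called stayed within 1.5 times the reported value, but for 2 cases below. The totals of further pathway genes called (30 in M1, 23 in Lamtor1-deficient and 24 in Torin1-treated cells) were recomputed with a shift to the median and with normexp, and stayed within 1.5 times. Split by direction, further pathway genes higher in M1 went from 10 to 3 with a shift to the median and 6 with quantile normalization, and those higher with Torin1 from 7 to 4 with normexp. The 2 cases were both in Lamtor1-deficient cells, where members called higher went from 0 to 1 (Ptges) with the mean of all probes, since its dimmer probe gave the larger ratio, and members called lower from 4 to 2 (Tbxas1 and Alox5ap) with the 3-fold mark. Of 26 member ratios, 135 of 182 alternative values lay within 1 technical SD and 47 did not. No called ratio changed sign, and 2 uncalled ones did, Alox5ap in M1 (log2 -0.65 to 0.17) and Ltc4s in M1 (-0.74 to 0.18). Ptges in M1 ranged from 1.09 to 4.72 and Ptgs1 in M1 from -8.89 to -6.80. Over all genes measured on both arrays, the median change of a gene's log2 ratio exceeded 0.1 with a shift to the median (M1 -0.82, Torin1-treated -0.25), with quantile normalization (M1 -0.12) and with normexp (M1 -0.11). No paired analysis was possible because each condition had 1 array, and for the same reason no array could be left out. Signal over background limits Alox5, Alox15, Ptgs1 in M1 and Ptgs2 in M2.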

Other observations

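For each member measured on all 4 arrays, the genes with the most similar profile were looked up among 12958 genes, by the Euclidean distance between log2 signals over the 4 arrays, each centred on its own mean. The nearest to Ptgs2 was Ifit2, an interferon-induced gene, with log2 ratios of 7.79 in M1, 0.45 in Lamtor1-deficient and 2.89 in Torin1-treated cells, at a distance of 0.47. The nearest to Ptgs1 was Tfrc, the transferrin receptor, at -7.21, -0.92 and -3.68, a distance of 0.98, and the next gene was 1.83 away, so few genes had a profile like that of Ptgs1. The nearest to Tbxas1 was Mxd4 at a distance of 0.17, to Alox5ap Coro1a, an actin-binding protein of leukocytes, at 0.44, and to Pla2g4a Ston2 at 0.25. Ptges, Lta4h and Ltc4s had neighbours at 0.05 (Clstn3), 0.09 (Bcl2l13) and 0.0037 (Acvr2a). With 4 arrays, such closeness describes these libraries only.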
